A study of Mus musculus with 21 samples.

Results

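Of the 5898 peaks in the Zbtb1 ChIP-seq list, 455 (7.71%) had their centre in a simple repeat or a low-complexity stretch, and these 455 peaks are described here. They were taken as every row whose detailed annotation names one of these repeat families, 422 as simple repeats and 33 as low complexity. The ChIP-seq was done in an *Ebf1*-deficient lymphoid progenitor (LP) line of C57BL6/J mice, grown on OP9 stromal cells with SCF, IL-7 and Flt3 ligand and without Notch stimulation. Chromatin was fixed with both DSG and formaldehyde, and Zbtb1 and Cbfa2t3 were each precipitated in 2 replicates with a mixture of antibodies, beside 2 input libraries. QuantSeq 3′ mRNA sequencing covered the same *Ebf1*-deficient line, with Cas9, in 5 groups of 3 libraries. These groups received sgRNAs to luciferase (sgControl), *Lmo2* (sgLmo2), *Zbtb1* (sgZbtb1), *Cbfa2t2* (sgCbfa2t2) or *Cbfa2t3* (sgCbfa2t3), a pair of guides per gene, and were sorted 5 days later for the Cas9 and sgRNA markers. All cells in these comparisons therefore lack *Ebf1*, come from 1 line and carry Cas9 in the QuantSeq groups. The study's methods call the 3 libraries of a group biologically independent replicates.

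Simple repeats, or microsatellites, are runs in which a unit of a few bases is copied head to tail. Low-complexity sequence is rich in a single base or base pair without a fixed unit. Zbtb1 is a zinc finger protein with a BTB domain that is needed for lymphoid development, and Cbfa2t3 (ETO2) is a corepressor that reaches DNA through other factors, among them E proteins in Lmo2 complexes. Runx, GATA and ETS factors and E proteins are common at lymphoid enhancers, and each reads a short word of DNA. Runx factors read TGTGGT. A repeat can hold many copies of such a word in a small space.

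The sequences below show what these peaks hold. Each is the central 150 bases of a peak, plus strand, GRCm38 (mm10), from the RefSeq assembly. In the first set, capitals mark perfect tandem runs of the TGG class of at least 12 bases, and runs of any other unit are left in lower case. The peaks with the nearest genes *Hs6st1* (chr1:36097376-36097525), *Lgr6* (chr1:135082491-135082640), *Parp16* (chr9:65202590-65202739) and *Foxk2* (chr11:121279771-121279920) lie in TGG repeats, and are shown because that unit made up most of the group.
Hs6st1: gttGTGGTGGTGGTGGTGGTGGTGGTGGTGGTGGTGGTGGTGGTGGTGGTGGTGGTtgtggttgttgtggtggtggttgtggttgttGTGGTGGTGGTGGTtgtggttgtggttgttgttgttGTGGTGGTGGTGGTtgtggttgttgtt
Parp16: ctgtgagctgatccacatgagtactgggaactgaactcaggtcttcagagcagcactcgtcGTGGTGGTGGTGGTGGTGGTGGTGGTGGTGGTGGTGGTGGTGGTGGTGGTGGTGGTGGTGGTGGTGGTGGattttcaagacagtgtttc
Foxk2: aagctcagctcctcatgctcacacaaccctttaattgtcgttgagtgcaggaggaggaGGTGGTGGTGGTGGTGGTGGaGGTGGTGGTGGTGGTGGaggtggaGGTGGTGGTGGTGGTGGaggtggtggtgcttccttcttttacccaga
Lgr6: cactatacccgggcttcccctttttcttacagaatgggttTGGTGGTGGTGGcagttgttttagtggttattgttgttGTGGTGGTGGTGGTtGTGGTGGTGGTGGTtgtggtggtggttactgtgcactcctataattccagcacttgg

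The second set shows peaks whose unit is longer or imperfect, 3 of them among the 5 highest scored and the *C1ql2* peak (77.5) as the top of the ACACC class, with TGTGGT in capitals on either strand (ACCACA on the other), because in the *Ywhah* peak that word recurs in every copy of the unit. They lie nearest to *Ywhah* (chr5:33041039-33041188), *Btbd9* (chr17:30518909-30519058), *C1ql2* (chr1:120319883-120320032) and *Nup93* (chr8:94207247-94207396).
Ywhah: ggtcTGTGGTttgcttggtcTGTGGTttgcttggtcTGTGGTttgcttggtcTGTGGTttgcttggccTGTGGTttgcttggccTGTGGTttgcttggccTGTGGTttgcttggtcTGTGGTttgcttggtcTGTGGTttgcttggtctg
Btbd9: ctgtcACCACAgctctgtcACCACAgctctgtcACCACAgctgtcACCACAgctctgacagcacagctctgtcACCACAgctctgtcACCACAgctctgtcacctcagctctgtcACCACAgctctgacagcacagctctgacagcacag
C1ql2: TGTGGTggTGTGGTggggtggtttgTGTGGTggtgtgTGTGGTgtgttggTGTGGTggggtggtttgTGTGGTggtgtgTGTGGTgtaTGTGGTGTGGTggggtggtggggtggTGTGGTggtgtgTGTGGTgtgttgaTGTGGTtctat
Nup93: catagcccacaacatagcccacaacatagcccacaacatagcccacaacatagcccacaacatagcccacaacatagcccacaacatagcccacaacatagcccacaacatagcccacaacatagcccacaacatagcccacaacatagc

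A single repeat unit dominated the group. Of the 455 peaks, 304 (66.8%) were annotated as TGG repeats, counting all rotations of the unit and its complement as 1 class. The annotation wrote 141 of them as TGG and 163 as CCA, so the G-rich strand was the plus strand in about as many peaks as the minus strand. The next classes were far smaller. TG dinucleotide repeats gave 25 peaks, A-rich stretches 12, the ACACC unit 12, T-rich stretches 11, the AGCCCC unit 10 and telomere-like TTAGGG repeats 9. The remaining 72 peaks were spread over 24 further classes of at most 8 peaks each.

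The same classes were rare in the Cbfa2t3 list, which came from the same cells and the same peak caller. On the main chromosomes the lowest score was 20.6 in that list and 15 in the Zbtb1 list. In the Cbfa2t3 list, 32 of 6077 peaks (0.527%) lay in a simple repeat or low-complexity stretch, and 1 of them was a TGG repeat. The annotation gives a repeat family only to peaks in introns and intergenic sequence, and the Cbfa2t3 list holds more of these, so the shares were also taken over those places alone. Repeat peaks then made up 13.5% of the 3364 intronic and intergenic Zbtb1 peaks and 0.656% of the 4875 Cbfa2t3 peaks. TGG repeats alone made up 9.04% of the former. Peaks are not replicates and each list holds 1 value per peak for both replicates together, so these counts are descriptions with no test.

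The deposited peak score, a tag count normalized for depth, was at least 15 in the Zbtb1 list. Repeat peaks had a median score of 32.3 (quartiles 22.2 and 52.8), against 27.7 for all other Zbtb1 peaks on the main chromosomes and 25.7 for those in introns and intergenic sequence. A score of 30 or more was reached by 52.7% of the repeat peaks and by 40.4% of the other intronic and intergenic peaks. The strongest Zbtb1 peaks, up to a score of 29792, were not annotated as simple repeats or low complexity. Other repeat families were not set apart. Among the 100 highest were 7 repeat peaks. Among peaks scored 30 or more the order turned: the median was 51.9 in repeat peaks and 52.7 in the other Zbtb1 peaks. The TGG class had a median of 31.6 and the rest of the repeat peaks 33.1, so neither part stood out. T-rich and telomere-like peaks had the highest medians of the named classes, 52 and 51.9, on 11 and 9 peaks. The focus ratio, the fraction of tags close to the peak's centre, had a median of 0.86 in repeat peaks. It was 0.809 in all other Zbtb1 peaks and 0.825 in those in introns and intergenic sequence.

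**Figure D1:**
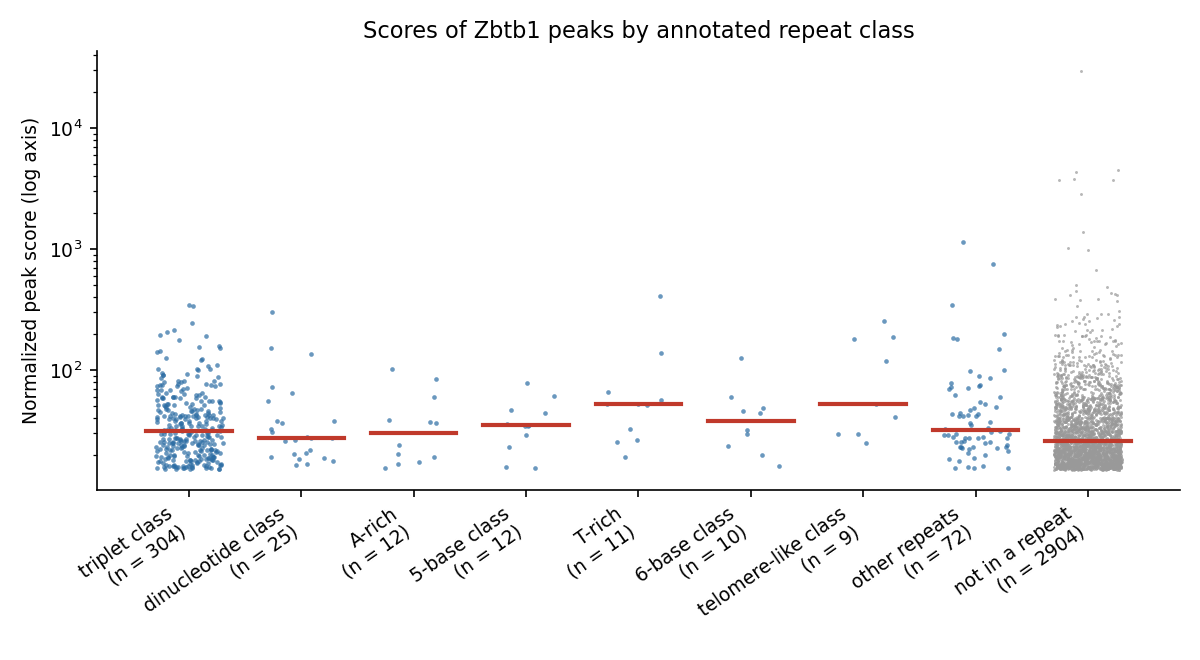
Normalized score of each Zbtb1 peak (log axis) by annotated repeat class, with the red bar at the median. The triplet class (TGG) has 304 peaks with a median of 31.6, the dinucleotide class (TG) 25 peaks, the 5-base class (ACACC) 12 and the 6-base class (AGCCCC) 10. The grey points are the 2904 intronic and intergenic Zbtb1 peaks not annotated as simple repeats or low complexity. They have a median of 25.7 and the highest scores of all, and other repeat families were not set apart among them.

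The 3 highest scored repeat peaks were not in TGG repeats. The peak at chr8:94207136-94207506, 7243 bases from the start of *Nup93*, a nuclear pore scaffold gene, scored 1140.6 and was number 21 of the whole list. It is annotated by a 5-base unit, but the 150 bases printed above repeat exactly every 12 bases, with 100% of bases equal to the base 12 places on. The peak with *Uvrag*, an autophagy gene, as the nearest gene scored 748.2. The peak nearest to *Ywhah*, which encodes a 14-3-3 protein, scored 412.4 and is intergenic at chr5:33040928-33041298, 22297 bases from the start. It is annotated as T-rich, and 98.5% of its printed bases match the base 16 places on. The peak in intron 4 of *Btbd9* scored 343.7, with a unit of 14 bases. The annotation's short units thus do not always describe the repeat that is in the sequence.

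Of the 10 highest scored repeat peaks, 4 lay in TGG repeats. The peak at chr1:36097265-36097635, in intron 1 of *Hs6st1*, a heparan sulfate 6-O-sulfotransferase gene, scored 347.8 and holds 34 overlapping copies of TGGTGGTGG and a perfect run of 53 bases. *Lgr6*, an R-spondin receptor gene, had a peak of 340.9 in intron 1 with short runs of at most 14 bases. The intergenic peak near *Parp16*, which encodes an endoplasmic reticulum ADP-ribosyltransferase, scored 247.0 on a single run of 70 bases. *Foxk2*, a forkhead factor gene, had a peak of 215.4 in intron 1. High scores therefore came from long pure runs as well as from short broken ones. Across the 304 TGG peaks, the rank correlation of the score was −0.049 with the longest run and 0.118 with all run bases in the peak. Both are descriptions across sites that share the same libraries.

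The rule placed the centre of each peak in an annotated repeat, so the next values describe the sequence there and test nothing. The word TGGTGGTGG, on either strand, was present in the central 200 bases of 292 of the 304 TGG peaks (96.1%), against 0.329% of 608 windows of the same size 5 kb to each side. In the 151 other repeat peaks it was present in 10 (6.62%). Over all repeat peaks the share was 302 of 455, 66.4%, and over the other Zbtb1 peaks, which the rule kept apart, 4.80%. Of the TGG peaks, 233 (76.6%) held a perfect run of at least 24 bases. The centre of the longest run lay at a median of 19 bases from the centre of the peak, in the 285 peaks with a run of at least 12 bases. Read along the G-rich strand, the run was centred after the peak's centre in 189 peaks and before it in 93, with a median offset of 9.5 bases.

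**Figure D2:**
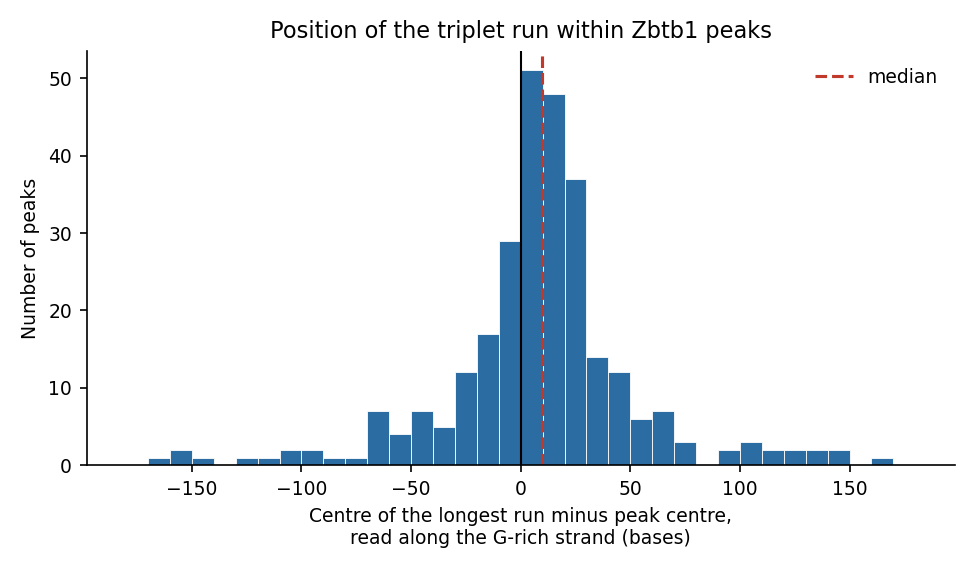
Histogram, in bins of 10 bases, of the distance from the centre of a TGG-class Zbtb1 peak to the centre of its longest perfect run, read along the G-rich strand. The black line marks the peak's centre and the dashed line the median of 9.5 bases. Of the 285 peaks with a run, 189 lie to the right of the centre.

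Not every TGG run in the genome was under a peak. GRCm38 was scanned for perfect tandem runs of at least 24 bases with units of up to 6 bases, which gave 796481 runs on the main chromosomes. Of 3686 TGG runs, 526 (14.3%) lay under a Zbtb1 peak and 8 (0.217%) under a Cbfa2t3 peak. For all runs together the Zbtb1 share was 0.135%. TG runs, the commonest kind with 243829, were under a Zbtb1 peak in 0.0595% and under a Cbfa2t3 peak in 0.089%. Of the other units examined with at least 100 runs, those above 2% were CCG (27.4% of 157 runs) and CCCCG (8.28% of 157), which are common in CpG islands, ACACC (5.11% of 313), TTAGGG (3.78% of 423), AGCCCC (2.33% of 301) and ACAGC (2.05% of 733). By contrast, AGG runs, which are also G-rich triplets, were under a Zbtb1 peak in 8 of 12944 cases (0.0618%).

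**Figure D3:**
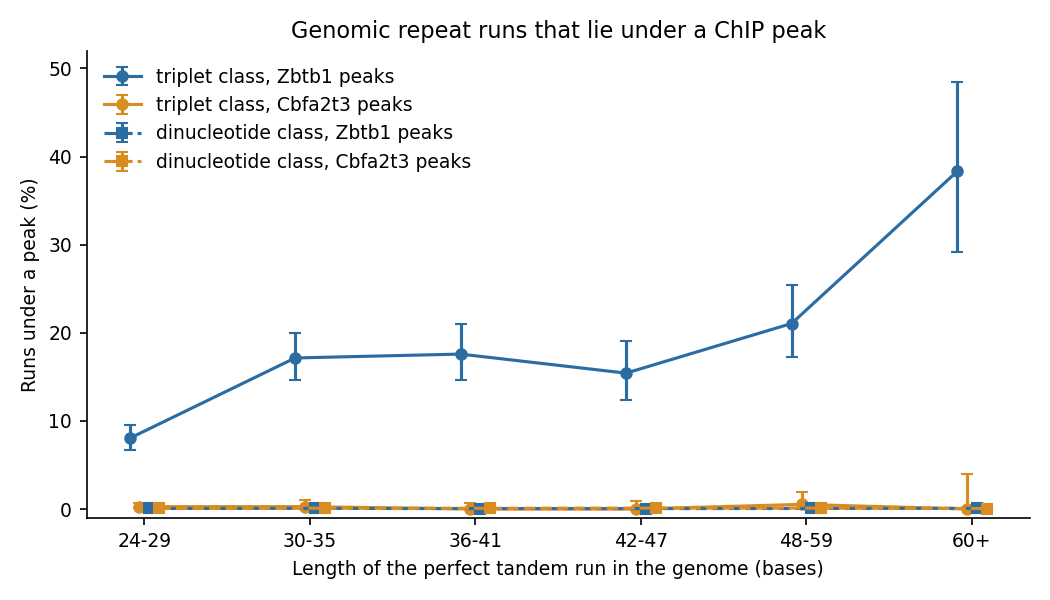
Share of perfect tandem runs in GRCm38 that lie under a peak, by run length in bases, for the triplet class (TGG, circles) and the dinucleotide class (TG, squares) and for both peak lists, with 95% Wilson intervals. The intervals show counting error only and take each run alone, although a peak can cover several runs. The triplet runs under Zbtb1 peaks go from 8.02% at 24 to 29 bases to 38.3% at 60 bases or more, while the points of the other 3 lines stay below 1%.

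Longer TGG runs were more often under a Zbtb1 peak. The share was 8.02% for runs of 24 to 29 bases, 17.1% for 30 to 35 bases, 15.4% for 42 to 47 bases, 21.1% for 48 to 59 bases and 38.3% for 94 runs of 60 bases or more. Runs that lay within 370 bases of each other, about the width of a peak, were then joined into 3269 loci, of which 319 (9.76%) were under a Zbtb1 peak. Of the loci with a single run 7.59% were under a peak, of those with 2 runs 30.4% and of those with 3 or more runs 60.7% (51 of 84). With 100 or more run bases in the locus the share was 58.5%, and with 24 to 35 bases 4.03%. By the longest run of a locus it was 3.39% at 24 to 29 bases and 37.6% at 60 bases or more. The 8 loci under a Cbfa2t3 peak all had a single run. Reads from long repeats match many places in a genome, and the authors' alignment kept reads with several equally good places up to a limit. The reads themselves were not analysed here, so the part of such reads in these peaks was not tested.

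The place of a TGG locus went with its share as well. Loci within 10 kb of the start of a protein-coding gene were under a Zbtb1 peak in 18.1% (148 of 818), those at 10 to 100 kb in 9.77% and those beyond 100 kb in 2.69% (26 of 967). Where the nearest protein-coding gene had a mean above 10 TPM in the sgControl libraries, the share was 15.5% (169 of 1094), and where it was listed at 0 in all 3 libraries it was 5.01% (81 of 1618). Within 100 kb of a start the same split gave 19.2% against 6.81%. Loci inside protein-coding genes were under a peak in 12.5%, with 109 of 778 where TGG was on the coding strand and 10.2% where CCA was. These bins were chosen after the data had been seen, and neighbouring genes are not independent.

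**Figure D4:**
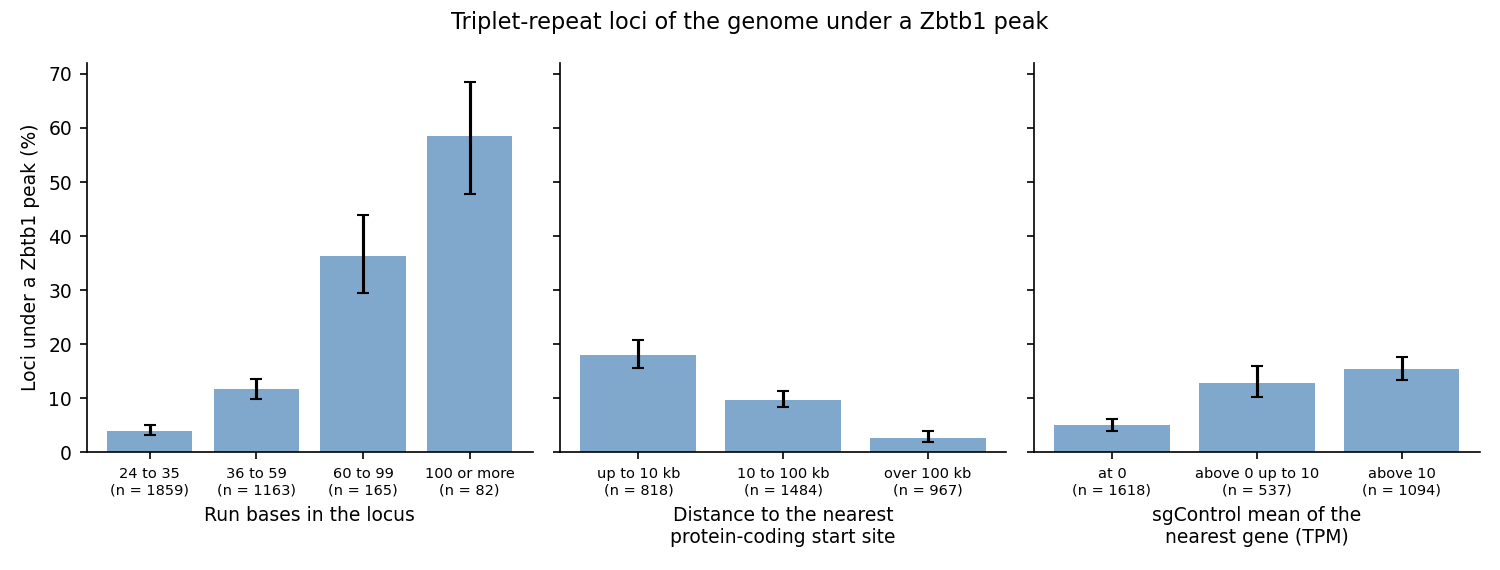
Share of the TGG loci of GRCm38 under a Zbtb1 peak, by run bases in the locus, distance to the nearest protein-coding start and sgControl mean of the nearest protein-coding gene (TPM), with 95% Wilson intervals. The share rises from 4.03% to 58.5% with run bases, falls from 18.1% to 2.69% with distance, and is 5.01% next to genes listed at 0.

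The peaks in repeats were divided between introns (227) and intergenic sequence (228). Of the intronic ones, 91 (40.1%) were in intron 1, against 49.7% of the other intronic Zbtb1 peaks. The median distance to the nearest start was 20818 bases. Within 10 kb of a start lay 30.3% of the repeat peaks and 39.9% of the other intronic and intergenic Zbtb1 peaks. In 154 intronic TGG peaks with a known host strand, TGG was on the coding strand in 97 and CCA in 57, beside 778 and 568 for all TGG loci in protein-coding genes. The peaks were found on chromosomes 1 to 19 and X, with 35 on chromosome 11 beside 463 other Zbtb1 peaks and 5 on chromosome X beside 55. The rule leaves some TGG repeats out: 82 other Zbtb1 peaks held a perfect TGG run of at least 24 bases, 42 in introns, 20 intergenic and 12 at promoters, with a median score of 37.4.

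Few repeat peaks were shared with Cbfa2t3. An overlap of at least 1 base with a Cbfa2t3 peak was found for 18 of 455 repeat peaks, 3.96% (95% Wilson interval 2.52 to 6.17%, counting error only), and for 37.7% of the 2904 other intronic and intergenic Zbtb1 peaks. TGG repeats gave the lower share, 5 of 304 (1.64%), against 13 of 151 (8.61%) for the other repeats. The 5 TGG peaks were those nearest to *Lgr6*, *Lrpap1*, *Clic5*, *Atxn2* and *Ccr7*, the last a lymphocyte homing receptor gene. Of the 9 telomere-like peaks 3 were shared, and of the 4 peaks with the ACGC unit 3 were. The shared peaks had a median Zbtb1 score of 83, against 31.7 for the 437 that were not shared. The *Nup93* peak, 1140.6 in the Zbtb1 list, scored 28.2 in the Cbfa2t3 list, while a peak near *B4galt1* scored 18.7 and 410.5.

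The words of E proteins and of ETS, GATA and Runx factors had lower shares in TGG peaks than in other intronic and intergenic Zbtb1 peaks. The rule put a TGG repeat at the centre of these windows, which leaves fewer bases for other words. The shares therefore describe the sequence and test nothing. CANNTG, the E-box of E proteins, was present in the central 200 bases of 34.9% of the TGG peaks, 66.9% of their flanking windows and 66.8% of the other intronic and intergenic Zbtb1 peaks. The ETS word AGGAAG was present in 16.4% of TGG peaks, 24.7% of their flanks and 33.9% of those others. The GATA word AGATAA was present in 5.26% of TGG peaks, 11.5% of their flanks and 6.82% of those others, whose own flanks had it in 9.59%. TGTGGT was present in 35.2% of TGG peaks, 14.3% of their flanks and 62.2% of the other peaks. This word can share bases with TGGTGG, as where a run ends in TGTGGTGG. In 39 TGG peaks (12.8%) a copy lay at least 3 bases away from any TGGTGG.

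Copies of TGTGGT were also clustered in some repeats. At least 3 copies in 200 bases were present in 66 repeat peaks (14.5%), in 0.22% of their flanks and in 8.26% of the other intronic and intergenic Zbtb1 peaks. At least 5 copies were present in 50 repeat peaks and in 1.34% of those others. For repeats other than TGG the share with at least 3 copies was 25.8% (39 of 151). These included all 12 ACACC peaks, whose unit spells the word by itself, and 17 of 25 TG peaks. The *Ywhah* peak held 12 copies, 1 in each 16-base unit, the *C1ql2* peak 18 and the *Btbd9* peak 9. The *Nup93* peak held none. A match describes letters only and not a bound factor.

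The QuantSeq libraries held 1705416 to 2095447 reads, so a count of 3 reads stands for 1.43 to 1.76 TPM, the authors' unit, which is scaled to the reads of the library. The lymphoid progenitor label was checked first: markers such as *Ptprc*, *Cd34*, *Flt3* and *Il7r* had sgControl means of 161 to 476 TPM, while *Cd79a* and *Igll1* were listed at 0 there. Of the 10 markers, 3 had means below 3 reads, and of the 8 tested 4 had an adjusted p under 0.05 for the libraries labelled sgZbtb1 against sgControl, as did 4.79% of all genes tested. *Cd34* and *Cd93* were higher there, by 0.53 and 0.52 on the log2 scale, and *Kit* and *Ptprc* had log2 differences of −1.14 and −0.28 (limma, adjusted p = 0.00107, 0.000159, 0.0205 and 0.0393). Their part in the results on the nearest genes was not tested. The 10 OP9 stromal markers summed to 3.44 to 14.7 TPM per library against 1380 to 1607 TPM for the 10 lymphoid markers. *Zbtb1* mRNA was 62.7, 66.6 and 55.7 TPM in sgControl and 94.4, 113 and 109 TPM in the libraries labelled sgZbtb1, higher by 0.77 on the log2 scale (SE 0.16, limma, adjusted p = 0.00102). *Cbfa2t3* mRNA was 210, 189 and 172 TPM in sgControl and 341, 344 and 365 TPM in the libraries labelled sgCbfa2t3, higher by 0.88 (SE 0.11, limma, adjusted p = 1.668e-07). A 3′ tag cannot tell whether a guide cut its target and protein was not measured in these files, so the groups are called by their labels.

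Of the 455 peaks, 414 had a nearest gene in the QuantSeq table, 400 different genes in all. Of these, 235 (58.8%) passed the filter of a mean above 1 TPM, against 20.8% of all genes in the table and 67.1% of the genes nearest to the other intronic and intergenic Zbtb1 peaks, and 101 were listed at 0 in all 15 libraries. The test was a limma fit on log2(TPM + 1) over 11554 genes, with Benjamini-Hochberg adjustment. On this scale the changes of low genes are understated. In the libraries labelled sgZbtb1 against sgControl, 15 of the 235 nearest genes (6.38%) had an adjusted p under 0.05, where 4.79% of all genes tested did. Of the 15, 4 were higher (background 1.85%) and 11 lower (background 2.94%). The genes nearest to the other intronic and intergenic Zbtb1 peaks were called in 7.80% (109 of 1397). The nearest genes of TGG peaks were called in 10 of 154 (6.49%), and those of peaks within 10 kb of a start in 4 of 79 (5.06%). The median log2 difference was −0.10 for the nearest genes and −0.03 for all genes tested. These shares lie near the background. With the study's thresholds for changed genes put on the limma fit, whose p is not that of the study's own test (unadjusted p under 0.05, a log2 change above 1 either way, and more than 10 TPM on average in at least 1 of the groups), 9 of the 235 passed (3.83%, background 1.66%), as did 47 of the 1397 genes nearest to the other intronic and intergenic peaks (3.36%). Without sgZbtb1 replicate 3 the count was 9 of 235, beside 2.65% of all genes tested.

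Of the 15 called genes, 11 were lower in the libraries labelled sgZbtb1. *Itpr2*, which encodes an inositol trisphosphate receptor calcium channel, fell most on the log2(TPM + 1) scale. With a pseudocount of 0.1, *Lncpint* fell more, by 2.74 against 2.69. *Lncpint* had 7.55, 6.37 and 4.69 TPM in sgControl and 2.23, 0.478 and 0.491 TPM in sgZbtb1. In sgZbtb1 replicates 2 and 3 it was below 3 reads, so the size of its fall is poorly known. The values of *Itpr2* were 19.8, 40.5 and 41.1 TPM in sgControl and 4.47, 5.26 and 4.91 TPM in the libraries labelled sgZbtb1, a log2 difference of −2.49 (SE 0.28, limma, adjusted p = 1.115e-09). Its peak, a TTAGGG repeat scored 29.7, lies 29069 bases upstream at chr6:146531107-146531477. *Ywhah*, nearest to the third highest repeat peak, had 125, 150 and 120 TPM in sgControl and 46.4, 69.3 and 45.2 TPM in sgZbtb1. The log2 difference was −1.30 (SE 0.13, limma, adjusted p = 5.066e-11). All 3 sgZbtb1 libraries were well below the sgControl libraries for both genes.

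*Mllt3* encodes AF9, a chromatin reader of the transcription elongation machinery that is used in blood stem cells. It had 63.3, 69.5 and 48.1 TPM in sgControl and 20.7, 31.1 and 21.6 TPM in sgZbtb1, a log2 difference of −1.27 (SE 0.21, limma, adjusted p = 1.906e-05). Its peak, scored 80.0, lies in intron 2 in a CCA repeat that holds no perfect run. *Actr3b*, an Arp3-like gene of actin branching, had 157, 251 and 208 TPM in sgControl and 77.1, 89.9 and 105 TPM in sgZbtb1, a fall of 1.16 on the log2 scale (SE 0.13, limma, adjusted p = 9.247e-10). *Nav1*, a microtubule-associated gene, went from 89.4, 142 and 122 TPM to 53.1, 56.4 and 62.9 TPM. The fit gave an SE of 0.14 on the log2 scale (limma, adjusted p = 4.055e-07). Both peaks lie in intron 1 and scored 15.4 and 29.7, beside a median of 32.3 for all repeat peaks. *Sema4a*, a semaphorin gene with a TG repeat peak in intron 2, fell by 0.78 on the log2 scale, and *B4galt1*, a galactosyltransferase gene, by 0.60.

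The calls of the other 4 lower genes were lost in some of the refits. *Lncpint*, a long noncoding RNA induced by p53, had a log2 difference of −1.88, *Fam102a* −1.31, *Zcchc24* −1.01 and *Rbm6*, an RNA-binding splicing regulator, −0.47. Their adjusted p-values in limma were 0.0244, 0.00346, 0.0310 and 0.0113. Without sgZbtb1 replicate 3 all 4 missed the threshold, with adjusted p of 0.117, 0.0982, 0.0912 and 0.115. The log2 differences were then −1.70 for *Lncpint*, −0.91 for *Fam102a* and −0.39 for *Rbm6*, and all 4 kept their direction, with fewer libraries in the fit. Tested with all genes above 0 TPM, *Lncpint* (0.126) and *Zcchc24* (0.0866) also missed it, with log2 differences of −1.88 and −1.01 as before. *Zcchc24* also missed it without sgControl replicate 1 (0.0520), 2 (0.0694) or 3 (0.137), without sgZbtb1 replicate 1 (0.213), and in edgeR (0.0575) and DESeq2 (0.0683). Its log2 difference was −0.73 without sgZbtb1 replicate 1 and −0.97 and −0.98 in edgeR and DESeq2. *Rbm6* missed it without sgControl replicate 3 (0.108). *Lncpint* missed it without sgControl replicate 1 (0.0912) or 2 (0.0822) or sgZbtb1 replicate 2 (0.109). Peaks near *Fam102a* (176.7) and *Zcchc24* (158.5) were among the stronger TGG peaks.

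The 4 higher genes included 2 that encode actin-binding proteins. *Cnn3* (calponin 3) had 98.7, 49.8 and 66.3 TPM in sgControl and 159, 127 and 128 TPM in sgZbtb1, a log2 difference of 0.99 (SE 0.16, limma, adjusted p = 6.856e-06). *Tagln2* (transgelin 2) went from 663, 578 and 585 TPM to 746, 739 and 842 TPM, a log2 difference of 0.35 (SE 0.08, limma, adjusted p = 0.00505). *Lrfn1*, a synaptic adhesion gene, had 12.8, 7.52 and 9.97 TPM against 32.4, 23.4 and 26.5 TPM, a log2 difference of 1.37. *Commd10* went from 20.9, 20.3 and 21.7 TPM to 37.4, 34.4 and 40.3 TPM, a log2 difference of 0.80. *Commd10* and *Tagln2* were not called without sgControl replicate 2 (adjusted p = 0.0614 and 0.0503) or without sgZbtb1 replicate 3 (0.0929 and 0.0763), and *Commd10* also without sgZbtb1 replicate 1 (0.0550). The log2 differences in these refits were 0.75 to 0.80 for *Commd10* and 0.29 to 0.31 for *Tagln2*, with fewer libraries in the fit. The 9 other called genes kept their call in all 14 refits. With 3 libraries against 3, an exact permutation test of 1 gene cannot go below p = 0.1.

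**Figure D5:**
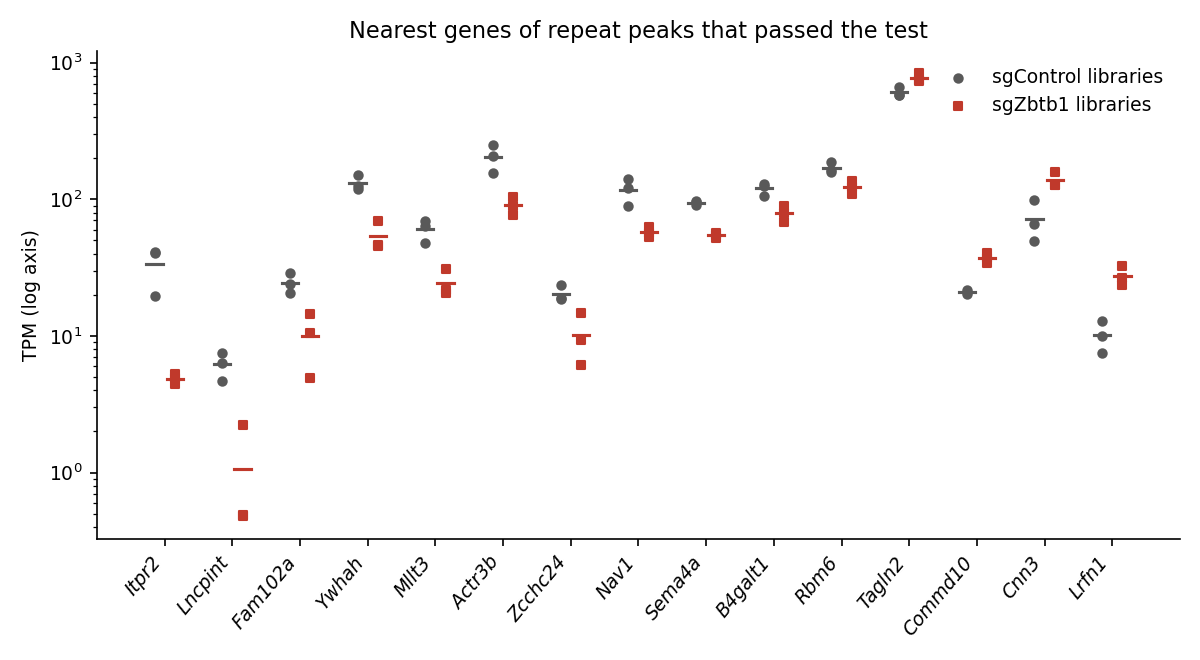
Values in each library (TPM, log axis) of the 15 nearest genes of repeat peaks with an adjusted p under 0.05, for 3 sgControl libraries (grey circles) and 3 libraries labelled sgZbtb1 (red squares), with bars at the group means. From *Itpr2* to *Rbm6* the sgZbtb1 libraries are lower, and for *Tagln2*, *Commd10*, *Cnn3* and *Lrfn1* they are higher. For *Itpr2*, at the left, the log2 difference is −2.49.

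Of the 10 highest scored repeat peaks, 8 had a nearest gene that could be tested, and 1 of these, *Ywhah*, passed (4.79% of all genes did). *Nup93* had 193, 188 and 129 TPM in sgControl and 151, 165 and 173 TPM in sgZbtb1, so the groups overlapped, with a log2 difference of −0.04 (limma, adjusted p = 0.916). *Uvrag* had a log2 difference of 0.33 (SE 0.23), *Hs6st1* −0.41 (SE 0.29), *Btbd9* −0.15 (SE 0.19) and *Foxk2* 0.11 (SE 0.23), with overlapping groups in each. *Lgr6* and *Tmem196* were listed at 0 in every library of both groups. *BC025920* and *Parp16* were at 5.86 TPM or less in all 6 libraries.

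Of 101 regulators of lymphoid and haematopoietic cells in the list used here, 8 were the nearest gene of a repeat peak. These were 8 of the 91 regulators tested (8.79%), beside 2.03% of all genes tested. TGG repeats were nearest to *Gata3*, *Runx3*, *Etv6*, *Elf1*, *Irf8* and *Nfatc1*, a TG repeat to *Tcf3*, which encodes the E protein E2A, and a CCG repeat to *Bcl6*. In the limma fit for sgZbtb1, 0 of the 8 had an adjusted p under 0.05 (4.79% of all genes tested and 20 of the 91 regulators did) and 3 had an unadjusted p under 0.05 (17.6% of all genes). These were *Irf8* (adjusted p = 0.0585), *Etv6* (0.132) and *Bcl6* (0.252). *Irf8* passed in edgeR (0.0305) and DESeq2 (0.0364). *Etv6* had 75.5, 70.0 and 52.2 TPM against 101, 73.6 and 86.4 TPM, so its groups overlapped. *Runx3* had 228, 324 and 318 TPM in sgControl and 269, 296 and 282 TPM in sgZbtb1, a log2 difference of −0.02 (SE 0.11). *Elf1*, an ETS factor gene, is nearest to a TGG peak scored 142.8 that lies in intron 4 of *Wbp4*, and had 559, 545 and 558 TPM against 513, 553 and 622 TPM. *Gata3* had 38.3, 31.8 and 31.7 TPM against 40.8, 43.0 and 24.1 TPM.

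*Irf8*, an interferon regulatory factor gene of myeloid and B cells, was the 1 nearest gene called with another sgRNA in the limma fit. It had 111, 120 and 116 TPM in sgControl, 50.9, 58.2 and 61.9 TPM in sgLmo2 and 137, 165 and 158 TPM in the libraries labelled sgZbtb1. The difference was −1.01 on the log2 scale for sgLmo2 (SE 0.13, limma, adjusted p = 1.2e-06) and 0.40 for sgZbtb1 (SE 0.13). Its TGG peak, scored 24, lies 38102 bases from the start at chr8:120776556-120776926. For sgLmo2, 1 of 235 nearest genes was called (background 0.0173%). For sgCbfa2t2 limma called 0 of 235 (background 0.147%), with 19 at an unadjusted p under 0.05 (9.56% of all genes), and edgeR and DESeq2 called 0. The count was 2 without sgControl replicate 1. For sgCbfa2t3 limma called 0 of 235 (background 0.537%), with 33 at an unadjusted p under 0.05 (10.6% of all genes), while edgeR called 0 and DESeq2 2. The count was 3 without sgControl replicate 1 and 1 without sgZbtb1 replicate 2. For these refits of sgCbfa2t2 and sgCbfa2t3 the share of all genes called is not given, so the counts have no background beside them. All 4 comparisons use the same sgControl libraries.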

How the data were processed

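The repeat classes, gene lists and named genes were chosen with earlier results of these data known. The authors aligned ChIP-seq reads to mm10 with Bowtie 1.1.1, called peaks with HOMER against input, filtered them by reproducibility between replicates and annotated them. The deposited lists give 1 normalized score and 1 focus ratio (a fraction) per peak, for both replicates together, and the distance to the nearest start. QuantSeq reads were trimmed with fastp, mapped with STAR and counted per Ensembl gene, and the authors scaled the libraries to an equal sum. Deposited as TPM, these values are CPM: they gave whole reads in 100% of values (tolerance 0.02 reads plus rounding). Columns with the authors' means, SDs, p-values and log2 fold changes were not used, and 1 row without a gene ID was left out (at most 5.86e-05% of a library).

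A member's class is its annotated unit, with rotations and complements joined. Words were counted on both strands in the central 200 bases, beside windows 5 kb away, with pysam 0.24.0 on the RefSeq GRCm38 genome, whose chromosomes match mm10. Perfect tandem runs were found by a scan that recovered 300 of 300 runs planted in random sequence. Nearest genes are the authors' annotation, matched to QuantSeq by Ensembl ID (398 peaks) or symbol (16). Protein-coding starts came from GENCODE. The fit used limma 3.58.1 (R 4.3.3) with trend on log2(TPM + 1), all 15 libraries and no covariates. On simulated reads of 11265 genes for sgZbtb1 against sgControl, 99.5% of the 200 genes changed 4-fold were called, as were 12 of the unchanged genes. The changed genes were drawn from those with a mean above 10 TPM, and every gene had the same simulated dispersion. Smaller changes and changes of lower genes were not simulated. Genes were named by rule: those nearest to the 10 highest scored peaks and to the top peak of each class with 10 or more peaks, up to 15 risen and 15 fallen nearest genes, the regulators and the targeted genes. Alternatives used edgeR 4.0.16, DESeq2 1.42.0 and the settings given at the end.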

Additional observations from a re-analysis of the deposited data

How the results depend on the processing

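With a score of at least 30, the median score of the repeat peaks was 51.9 (52.7 for the other Zbtb1 peaks). The share that overlapped a Cbfa2t3 peak of such a score was 2.5% (20.3% for the other Zbtb1 peaks). Simple repeats alone held TGGTGGTGG in 71.1%. The other definitions of a member, an overlap or a window gave 31.7 to 32.9 for the median score, beside 32.3 in the main setting. They gave 3.08 to 4.27% for the overlap (main 3.96%) and 65.7 to 66.8% for the word (main 66.4%). The count of nearest genes called for sgZbtb1 was 4 of 79 for peaks within 10 kb of a start, beside 4.79% of all genes. It was 9 of 235 with the study's thresholds for changed genes put on the limma fit (unadjusted p under 0.05, log2 change above 1, mean above 10), beside 1.66% of all genes. Leaving out each library in turn gave 9 to 17 of 235 (3.83 to 7.23%), beside 2.65 to 3.97% of all genes. The lowest was without sgZbtb1 replicate 3. The other settings gave 13 to 20 (4.35 to 8.51%), beside 1.77 to 6.62% of all genes. With all genes above 0 TPM it was 13 of 299 (4.35%), beside 1.77%. *Irf8* was called in 5 settings: edgeR, DESeq2, DESeq2's size factors within limma, the block and a fit of just the 6 libraries (adjusted p = 0.0267 to 0.0435). No named gene that was called changed its direction. Libraries with the same replicate number did not deviate together: the correlation of their deviations was 0.0346, 0.0401 and 0.0381 for sgControl and sgZbtb1. With the replicate number as a block the count was 20 of 235 (8.51%), beside 6.14% of all genes tested. Under the same block it was 2 for sgLmo2, 2 for sgCbfa2t2 and 4 for sgCbfa2t3. For sgCbfa2t3 a pseudocount of 0.1 or a mean above 10 gave 1. The share of all genes called in these refits of sgLmo2, sgCbfa2t2 and sgCbfa2t3 is not given here. Their counts therefore cannot be read as particular to the nearest genes. For these values the cause of the shifts was not tested. Depth, at 3 reads per 1.43 to 1.76 TPM, limits what can be seen for genes near or below that level.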
